A study of Procambarus virginalis with 4 samples.

Results

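Every gene model in the deposited methylation table of the marbled crayfish *Procambarus virginalis* carries an identifier such as WNGS01094365.1294470. The text before the dot has the form of a contig name and can be shared by several gene models. The prefixes that hold 3 to 150 gene models were kept, which gave 398 of the 8115 prefixes in the table. They held 2692 of 12978 gene models, or 20.7%. A further 7713 prefixes held only 1 or 2 gene models and 4 prefixes held more than 150. Rows that differ only in a final ending with a number and the word covsplit were averaged and counted as 1 gene model, which affected 170 of the kept models. The choice used the identifiers alone and no methylation value.

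The data came from whole-genome bisulfite sequencing (WGBS) of hemocytes, the circulating blood cells of the crayfish, drawn 28 days after an injection of double-stranded RNA. The 2 control animals had received dsGFP, directed against a gene that crayfish do not carry, and the 2 knockdown (KD) animals had received double-stranded RNA against *Dnmt1*. All 4 animals belong to a clonally reproducing species and were labelled as separate replicates, numbered 1 and 2 in each group. The purpose of the comparison was to see what a loss of *Dnmt1* does to DNA methylation inside genes.

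As background, DNA methylation of arthropods sits mostly in the bodies of a subset of genes, many of them broadly expressed, while the remaining genes carry almost none. Dnmt1 copies the methylation of the parental strand onto the newly made strand when a cell divides, so methylation is diluted over cell divisions when the enzyme is scarce. Because gene bodies are methylated or unmethylated largely gene by gene, it is of interest whether gene models that lie under a common contig name carry similar levels.

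Each value was the average methylation fraction of 1 gene model in 1 animal, given here as a percentage. The table held no read coverage, so the depth behind each value is unknown and no interval could be given for a single value. Per the supplement of the study, both animals numbered 1 were sequenced more deeply and with a lower mapping efficiency than both animals numbered 2, so depth goes with the replicate number, and its part in differences between the numbers was not tested. Per the methods of the study, cytosines under a combined coverage of 10 and genes under 10 CpGs had been dropped. The identifiers were not paired with gene names or positions, so the functions of the genes, their distances and their sequences are not given here, and neither hemocyte markers nor *Dnmt1* itself could be checked. Hemocytes are a mixture of cell types, and a change in the share of a cell type and a change within cells cannot be told apart. The number after the dot never went with a lower prefix in any of the 12977 steps from one model to the next, so the models were numbered through the table prefix by prefix.

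The kept prefixes were mostly small. There were 223 prefixes with 3 gene models and 81 with 4, and the longest 4 held 79, 72, 71 and 64. The prefixes fell into 346 with 3 to 9 gene models (1247 models) and 52 with 10 to 150 (1445 models), a division that was chosen after the values were seen. Both kinds differed in how they were numbered. The numbers of a small prefix spanned a median of 37.5, whereas those of a large prefix spanned a median of 13439, so a large prefix took in many identifiers that are not in the table.

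Methylation fell in the KD animals across the kept prefixes. Averaged over the 398 prefix means, the controls stood at 26.0% and 23.1%, and the KD animals at 16.0% and 14.4%. The groups did not overlap, with 24.5% ± 2.04 (SD, n = 2) against 15.2% ± 1.11 (n = 2). The difference was -9.34 percentage points and the KD animals kept 61.9% of the control level (exact permutation test, two-sided, p = 0.33, the smallest p that 2 against 2 animals can give). Single prefixes ranged from 0% to 88.2% in the control mean, with a median of 18.2%. The prefix mean was lower in KD in 372 of the 398 prefixes and higher in 26.

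In 320 of the 398 prefixes (80.4%) each KD animal was lower than each control, among them 52 of 52 large ones and 268 of 346 small ones, and in 2 each KD animal was higher than each control. Over all 8115 prefixes of the table these shares were 57.1% and 1.73%. A mean over several gene models varies less than the value of 1 model, and most prefixes of the table hold only 1. At the level of single gene models the kept prefixes were close to the table: 1628 of 2692 models (60.5%) had both KD animals below both controls and 48 had both above, against 56.2% and 1.68% of all models. A fall of the group mean by more than 10 percentage points was seen in 989 kept models (36.7%) and a rise by as much in 15, against 35.8% and 0.57% of all models. Among prefix means, 160 (40.2%) fell by more than 10 points and 0 rose by as much, against 33.5% and 0.419% of all prefixes.

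No kept gene model and no kept prefix passed limma's moderated test at a Benjamini-Hochberg adjusted p of 0.05 in either direction, as was the case over the whole table (0% lower and 0% higher, both for models and for prefixes). The smallest adjusted p was 0.0788 for a gene model and 0.0887 for a prefix. At an unadjusted p of 0.05, 796 of 2454 tested kept models were lower and 11 higher (32% and 0.443% of all tested models), and 143 of the 398 prefixes were lower and 1 higher (30.9% and 0.442% of all tested prefixes). With a prior variance that does not follow the mean level, limma called 248 kept models (10.1%) lower and 1 higher, against 10.2% and 0.0256% of all tested models. It then called 48 kept prefixes (12.1%) lower and 0 higher, against 9.18% and 0.0134% of all tested prefixes, while on the logit scale it called 0 in either direction.

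Gene models of one prefix resembled each other in the control level. Over all kept prefixes, a pair of models from one prefix differed by 18.0 percentage points in the control mean when each prefix was given the same weight. Models of different kept prefixes differed by 29.6 points. The intraclass correlation, the share of the variance over gene models that lies between prefixes, was 0.234, and the single animals gave 0.233 and 0.225 (controls 1 and 2) and 0.245 and 0.216 (KD 1 and KD 2). These values describe the 2692 models, which share 4 libraries and are not replicates, and no test was made of them.

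The resemblance was strongest in the prefixes with the fewest models. In prefixes with 3 gene models the intraclass correlation of the control mean was 0.545, and in prefixes with 4 it was 0.605. It was 0.241 in prefixes with 5 to 9 models, 0.238 with 10 to 20 and 0.083 with 21 to 150. All 4 animals gave this order of high values below 5 models and low values above 20. As one group, the 346 small prefixes had 0.50 and the 52 large ones 0.118. With each prefix given the same weight, a pair of models in the small prefixes differed by 16.8 points within prefixes. Between small prefixes it was 27.3 points. In the large ones the values were 25.8 and 31.5 points. Of all 29002 pairs of models within one prefix, 27181 lay in the large prefixes. With each pair given the same weight the difference was therefore 30.4 points, close to the 29.6 points between all kept prefixes. By that weighting it was 17.8 points within the small prefixes. Within the large ones it was 31.2 points, close to their value between prefixes.

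**Figure D1:**
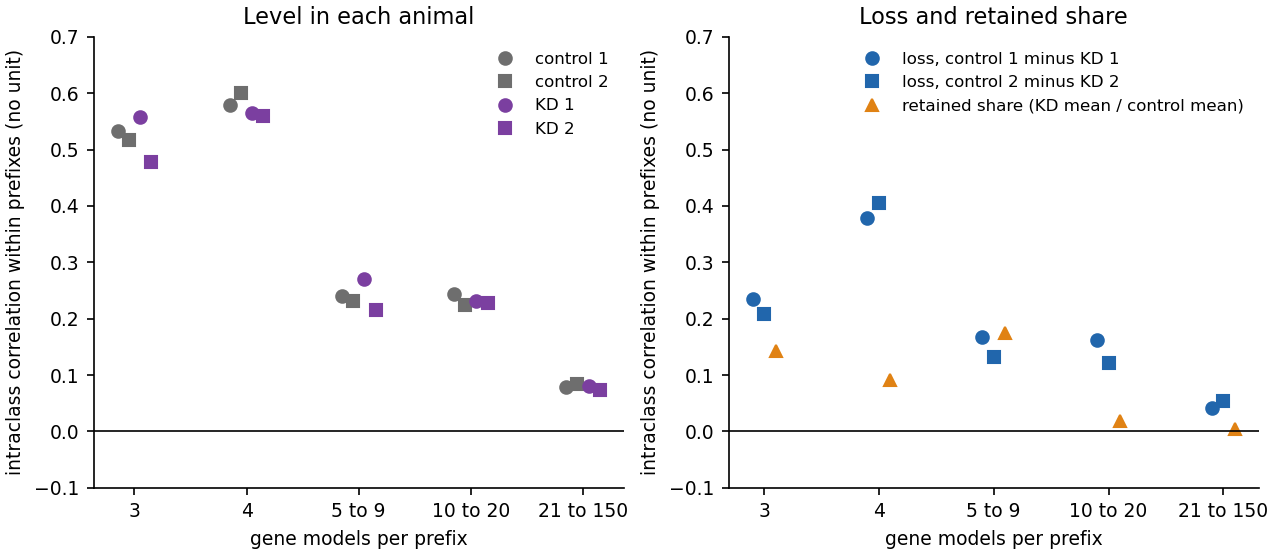
Intraclass correlation within prefixes (y axis, no unit) by the number of gene models per prefix (x axis), for the level in each of the 4 animals (left) and for the loss in each numbered pair of animals and the retained share (right). The level gave values of about 0.5 to 0.6 in prefixes with 3 or 4 models and below 0.1 in prefixes with 21 to 150, and the loss was lower than the level in each size class.

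The resemblance held from one animal to another. When the level of a model in control 1 was set against the mean of the other models of its prefix in control 2, Pearson's r over gene models was 0.448, and it was 0.444 the other way round. It was 0.591 and 0.590 in the small prefixes and 0.308 and 0.306 in the large ones. Here no library was set against itself.

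Neighbours in the numbering gave the same picture. Successive models of a small prefix differed by 15.9 points (901 pairs), and successive models of a large prefix by 24.6 points (1393 pairs). Successive models that belonged to different prefixes differed by 26.1 points (8114 pairs). These pairs across prefixes were taken over the whole table, where most prefixes hold only 1 model. For the large prefixes, the value of 24.6 points lay below the 31.2 points over all their pairs within a prefix. It also lay below the 31.5 points between large prefixes. Where the numbers were only 1 or 2 apart, the difference was 11.7 points in small prefixes (200 pairs), 23.3 points in large ones (184 pairs) and 30.6 points across prefixes (37 pairs). In small prefixes it was 18.9 points at a distance of 11 to 50 and 16.4 points above 100 (59 pairs), below the value across prefixes at both distances.

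Neighbours were also compared by whether both lay on the same side of a level of 10%, used below to call a model methylated. They did so in 68.1% of pairs in small prefixes and in 60.3% of pairs in large ones. Across prefixes of the whole table the share was 51.1% of pairs. With numbers 1 or 2 apart the share was 76.0% in small and 69.0% in large prefixes. With numbers over 100 apart it was 54.2% in small prefixes, close to the share across prefixes. Models with near-identical values were rare. Among neighbours with both control means at 10% or more, 3 of 366 pairs in small prefixes and 8 of 529 in large ones lay within 2 points of each other in all 4 animals, and without those pairs the differences were 17.8 and 24.2 points. Whether models with adjacent numbers overlap in the genome was not tested.

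**Figure D2:**
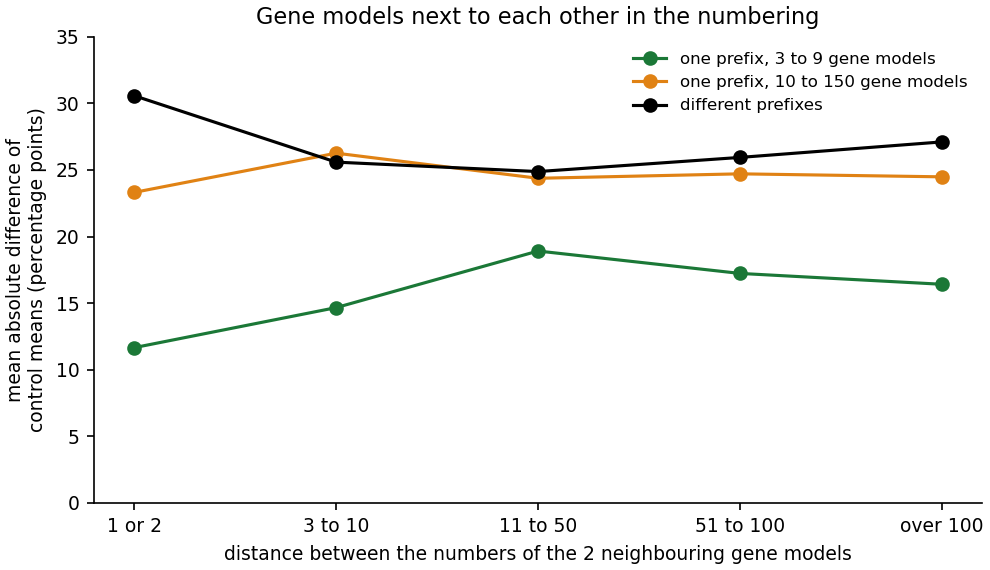
Mean absolute difference between the control means of gene models that follow each other in the numbering (y axis, percentage points) by the distance between their numbers (x axis), for pairs within small prefixes, within large prefixes and across prefixes of the whole table. Pairs in small prefixes lay lowest at each distance, from 11.7 to 18.9 points, while pairs in large prefixes lay near the pairs across prefixes from a distance of 3 upwards.

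The loss in KD, taken as the control mean minus the KD mean, was also shared within prefixes, but less than the level. Its intraclass correlation was 0.153 over all kept prefixes, 0.330 in the small and 0.0853 in the large ones. Taken from control 1 and KD 1 alone it was 0.126, and from control 2 and KD 2 alone 0.119. Within a prefix the loss of a pair of models differed by 9.42 points, against 13.1 points between prefixes, when each prefix was given the same weight. With each of the 29002 pairs given the same weight it differed by 13.7 points within prefixes. When the loss of a model in the first pair of animals was set against that of the other models of its prefix in the second pair, r was 0.282, and 0.278 the other way round.

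Much of this went with the level. When the median loss of kept models in the same of 10 equal classes of the control mean was subtracted, the intraclass correlation dropped to 0.0408. It was then 0.0851 in the small and 0.0027 in the large prefixes. The difference within a prefix, with each prefix given the same weight, was then 5.39 points, against 5.53 points between prefixes. This calculation was chosen after the values were seen.

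The share of the control level that a model kept in KD varied little with the prefix. It was taken for models with a control mean of at least 20%, in the 136 prefixes that had 3 or more of them (910 models). The intraclass correlation was 0.0878, and from the pairs of animals numbered 1 and 2 alone it was 0.0308 and 0.0041. The difference was 16.4 points within prefixes, with each prefix given the same weight. Between prefixes it was 16.0 points, with each pair of models given the same weight. The values were 16.6 and 17.7 points in the small prefixes and 16.1 and 15.1 points in the large ones. Set against the other models of the prefix in the other pair of animals, the share of a model gave an r of 0.115 and 0.107 over 816 models, and of 0.193 and 0.181 over the 253 models of small prefixes. The same model in both pairs of animals gave an r of 0.053 over the 816 models, so the share hardly repeated even within a model.

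A gene model was called methylated at a control mean of 10% or more, which 57.2% of the kept models reached. By this level, 110 prefixes were wholly methylated (27.6%), 58 were wholly unmethylated (14.6%) and 230 held both kinds (57.8%). Over every possible way to deal the same models out to prefixes of the same sizes, 52.1 prefixes would on average be wholly methylated and 20.5 wholly unmethylated. For a single size class, only the models of that class were dealt out among its prefixes. Among prefixes with 3 models 85 were wholly methylated and 41 wholly unmethylated, where the averages were 46.5 and 14.9. With 4 models the counts were 22 and 13, where the averages were 7.60 and 3.09. These averages are arithmetic on the counts of models and carry no test.

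**Figure D3:**
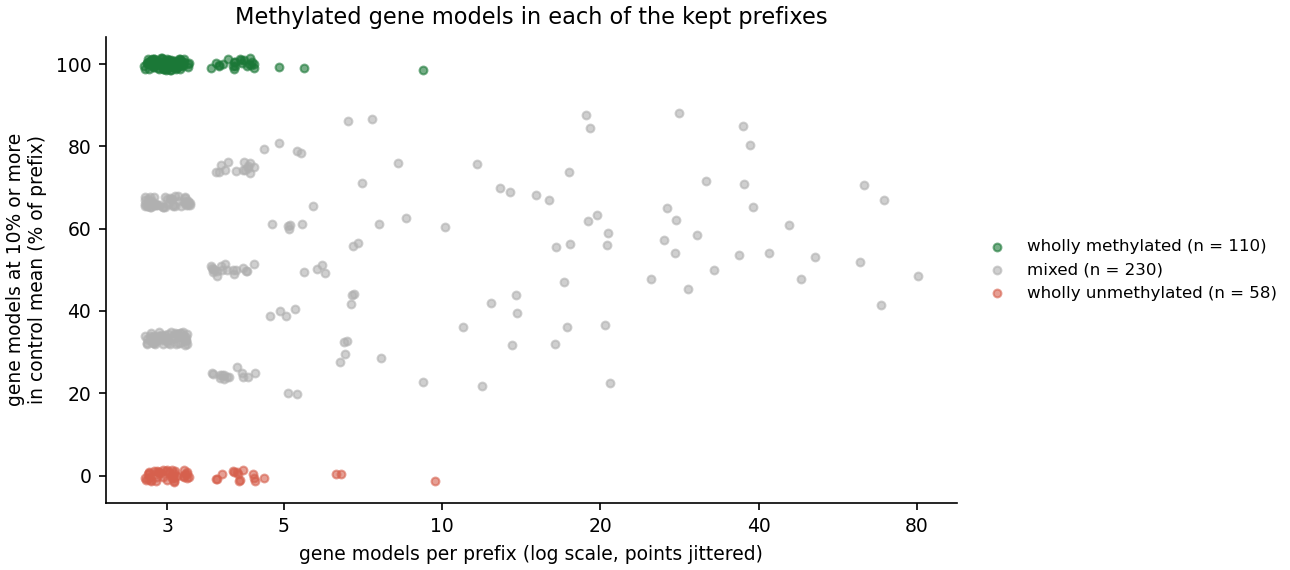
Share of methylated gene models in each of the 398 prefixes (y axis, percent of the models of the prefix at a control mean of 10% or more) by the number of models (x axis, log scale, points jittered). Of the 110 wholly methylated and 58 wholly unmethylated prefixes, only 1 each had 10 models, and the large prefixes lay mostly between 25% and 75%.

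The whole classes were found almost only among prefixes with few models. There were 2 wholly methylated and 3 wholly unmethylated prefixes with 5 to 9 models. The averages over all ways to deal out the models of that size class were 0.833 and 0.700. With 10 or more models there was 1 of each, where the averages were 0.022 and 0.00073. The averages thus also fell with the number of models, and the counts by the control mean lay above them in both size classes. Neither of the large whole prefixes held its class in both controls. The wholly methylated one, WNGS01094365, had models at 0% in control 2. The wholly unmethylated one, WNGS01169217, had models at 10.8% and 12.8% in control 1. In 43 of the 52 large prefixes, 25% to 75% of the models were methylated. A model under 1% stood beside a model over 50% in 41 of the 52 large prefixes and in 19 of the 346 small ones. A prefix with more models has more room for both, and no reference by size was computed. The classes depended on the animal: 114 prefixes were wholly methylated in control 1 and 98 in control 2, with 88 in both. For the wholly unmethylated class the numbers were 53, 64 and 44.

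Levels inside the whole classes were spread widely. The mean of the wholly methylated prefixes ran from 11% to 88.2%, with a median of 42.7%. In 66 of the 110 every model was at 20% or more, and in 24 every model was at 50% or more. The wholly unmethylated prefixes ran from 0% to 7.49%, with a median of 3.05%, and in 24 of the 58 every model was under 5%.

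In KD the wholly methylated prefixes fell and their number shrank. Over their 363 gene models, the controls had 49.7% and 44.2% and the KD animals 31.0% and 27.6%, with no overlap. The means were 46.9% ± 3.88 (SD, n = 2) and 29.3% ± 2.37 (n = 2), a difference of -17.6 points, with 62.5% of the control level kept (exact permutation test, two-sided, p = 0.33). Both KD animals were below both controls in 103 of the 110 prefixes, and 263 of the 363 models (72.5%) fell by more than 10 points. The class was set on the same controls, which favours a fall. With the class set on control 1 and the loss taken from control 2 the difference was -14.1 points, and the other way round it was -20.4 points.

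Models of the same kind lost about as many points on average where their prefix was mixed. In the 230 mixed prefixes, the 1177 models at 10% or more went from 41.2% to 24.5%, which left 59.5% of the control level. Of these, 726 (61.7%) fell by more than 10 points, a lower share than the 72.5% in wholly methylated prefixes. Over all models of the table this share was 35.8%. The 950 models under 10% in the same prefixes went from 3.37% to 2.44%. The 202 models of the wholly unmethylated prefixes stood at 3.60%, 2.71%, 2.40% and 2.39% in control 1, control 2, KD 1 and KD 2. Their difference of -0.762 points was smaller than the gap between the controls, although both controls stood above the KD animals (exact permutation test, p = 0.33), and 24 of the 58 prefixes had both KD animals below both controls.

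By the KD mean, 85 prefixes were wholly methylated and 101 wholly unmethylated. With the level for a methylated model left unchanged, 45.4% of the kept models reached it in KD, against 57.2% in controls. Over all ways to deal out the models, the KD averages were 24.8 wholly methylated and 44.7 wholly unmethylated prefixes. In controls they had been 52.1 and 20.5. Both KD counts thus lay above their averages, as both control counts did, and no test was made of this. Of the 110 prefixes wholly methylated in controls, 81 stayed so in KD, 26 became mixed and 3 became wholly unmethylated. Those 3, named after their values were seen, had low control means with 3 models each: WNGS01073510 went from 16.0% to 8.40%, WNGS01002444 from 14.2% to 7.79% and WNGS01054754 from 11% to 6.10%. Of the 230 mixed prefixes 46 became wholly unmethylated and 4 wholly methylated. Of the 58 wholly unmethylated ones 52 stayed so, 6 became mixed and 0 became wholly methylated.

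**Figure D4:**
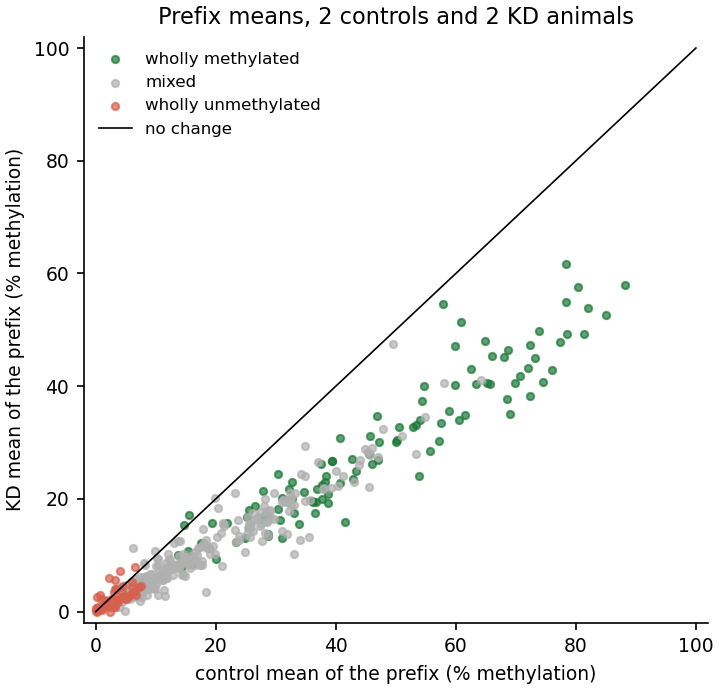
KD mean (y axis, percent methylation, 2 animals) against control mean (x axis, percent methylation, 2 animals) of each of the 398 prefixes, coloured by class, with the line of no change. The prefix means lay below the line in 372 prefixes and the wholly methylated prefixes stretched up to 88.2% in controls.

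The wholly methylated prefix with the most gene models was WNGS01094365, with 10 models. Its mean in controls 1 and 2 stood at 67.8% and 52.0%, above KD 1 and KD 2 with 41.2% and 39.2%. The highest model, WNGS01094365.1294470, had 85.0%, 80.5%, 52.3% and 40.2% in the same order, a fall of -36.5 points (limma SE 6.80, adjusted p = 0.0788). In 8 of the 10 models both KD animals were below both controls. The remaining 2 rested on very uneven animals. WNGS01094365.1294166 had 33.3% in control 1 and was listed at 0 elsewhere, and WNGS01094365.1294153 had 54.5%, 0%, 18.2% and 75% in the order above. Both were at 0% in control 2, so control 1 alone brought their control means above 10%.

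In WNGS01004411, a prefix with 4 gene models, the level was high in each model. Its models had control means of 91.4%, 90.4%, 71.0% and 68.7% and KD means of 63.5%, 70.8%, 46.2% and 50.3%. The prefix mean fell from 82.0% and 78.8% to 59.9% and 55.4%, and all 4 models had both KD animals below both controls. WNGS01000607, also with 4 models, went from 75.8% and 71.7% to 52.7% and 46.9%. WNGS01168547, with 5 models, had 58.7% and 47.1% against 34.0% and 31.5%. In both, the controls and the KD animals did not overlap.

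WNGS01004619 and WNGS01021481 had lower levels. The 4 models of WNGS01004619 spanned control means of 11.6% to 61.7%, and the prefix mean fell from 36.3% and 36.6% to 17.5% and 17.5%. The 5 models of WNGS01021481 had prefix means of 29.6% and 21.4% in the controls and 19.3% and 16.9% in KD. The gap between its controls was larger than the gap from control 2 to KD 1.

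The largest wholly unmethylated prefix, WNGS01169217, also held 10 models, which spread over 17883 numbers. Its mean stood at 7.34% and 5.35% in control animals, above the 3.31% and 3.53% of the KD animals. The models had control means from 0% to 9.48%, and 8 of the 10 sat between 5% and 10%, just under the level used. In control 1, WNGS01169217.2627302 had 12.8% and WNGS01169217.2627209 had 10.8%, so the prefix was mixed in that animal. WNGS01169217.2618776 was listed at 0 in all 4 animals, and WNGS01169217.2627205 had 9.36%, 9.61%, 2.33% and 7.94% in control 1, control 2, KD 1 and KD 2. Of the prefixes next in size, WNGS01001642 (6 models) had 3.85% and 2.30% in control animals against 2.17% and 1.44% in KD. In WNGS01168583 (6 models) the groups overlapped, with 4.85% and 7.12% against 2.52% and 6.35%. WNGS01025406, WNGS01004774 and WNGS01017947 had control means of 1.54%, 1.98% and 0.126% and KD means of 2.13%, 1.91% and 2.50%. In WNGS01025406 the model that rose was WNGS01025406.716115, with 12.5% in KD 2. In WNGS01017947 it was WNGS01017947.662296, with 20% in KD 2. Both models were listed at 0 in the other animals.

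**Figure D5:**
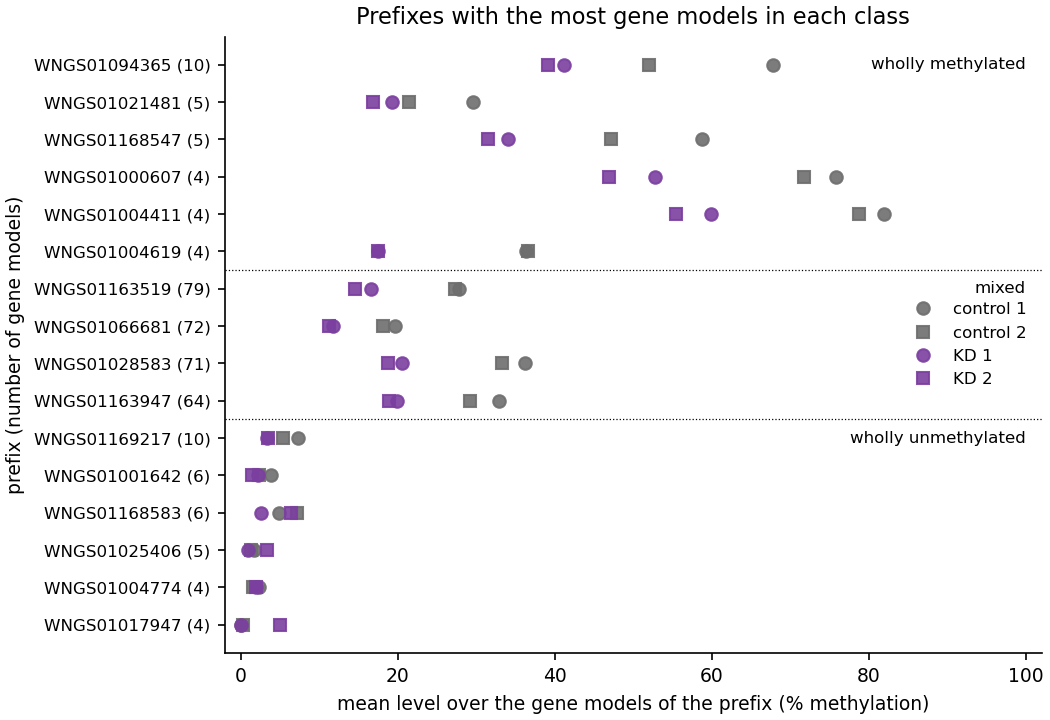
Mean level of the prefix (x axis, percent methylation) in each of the 4 animals for the prefixes with the most gene models in each class (y axis, number of models in brackets). In the 10 methylated and mixed prefixes both KD animals lay below both controls, while the wholly unmethylated ones lay below 8% in all animals.

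The 4 longest mixed prefixes held the whole range of levels and yet had stable means. WNGS01163519 (79 models, 38 of them methylated) had prefix means of 27.8% and 27.3% in control animals and of 16.6% and 14.5% after KD. Its models ran from 0% to 98.0% in the control mean, and the highest, WNGS01163519.2038284, had 100% and 96.0% in the controls and 66.6% and 31.3% in KD. WNGS01066681 (72 models, 30 methylated) had 19.6% and 18.1% against 11.8% and 11.2%. WNGS01028583 (71 models, 47 methylated) had 36.2% and 33.3% against 20.6% and 18.8%. WNGS01163947 (64 models, 33 methylated) had 32.8% and 29.2% against 19.9% and 18.9%. In each the controls and the KD animals did not overlap.

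In 10 prefixes the models spanned the full range of 100 percentage points in the control mean. The longest of these were WNGS01028583 and WNGS01039543 (63 models). In the former, WNGS01028583.732940 was listed at 0 in all 4 animals, and WNGS01028583.735095 had 100% in both controls, 71.4% in KD 1 and 40% in KD 2. The mean of WNGS01039543 went from 45.4% and 42.6% to 28.2% and 25.5%. The control means of the large prefixes ran from 4.90% in WNGS01160430 (21 models) over a median of 24.5% to 59.9% in WNGS01094365.

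The share kept in KD was also taken for whole prefixes with a control mean of at least 20%. Over these 187 prefixes its median was 60.9%, with quartiles of 55.5% and 66.2% and a range of 31.2% to 96.0%. In the 29 large prefixes among them it ran from 52.6% to 68.5%. A mean over more models varies less, and this range was taken over fewer prefixes. Values from both pairs of animals correlated with an r of 0.049 over the 187 prefixes, and of 0.324 over the 29 large ones.

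Among prefixes with 5 or more models and a control mean of at least 20%, WNGS01072140 kept the least. Its 7 models had a mean of 30.1% and 32.0% in the controls and 16.3% and 12.3% in KD, which was 46.0% of the control level. Its highest model, WNGS01072140.1109926, had 57.8%, 53.7%, 28.1% and 31.4% in control 1, control 2, KD 1 and KD 2 (adjusted p = 0.0788 by limma). In its lowest, WNGS01072140.1109836, the values of 2.45%, 6.47%, 5.82% and 2.28% overlapped between the groups. The next were WNGS01160057 with 52.5% kept, WNGS01167840 with 52.6% and WNGS01006708 with 53.2%.

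WNGS01162472 kept the most, 96.0% of its control level, and its groups overlapped with 51.9% and 47.0% in the controls and 50.5% and 44.5% in KD. This mean hid models that went different ways. WNGS01162472.1983015 went from 77.8% and 77.0% to 63.3% and 55.2%, and WNGS01162472.1983009 from 62.5% and 44.4% to 73.7% and 80%. WNGS01162472.1983007 had 7.30% and 5.53% in the controls and 9.55% and 8.63% in KD (adjusted p = 0.375 by limma). The next, WNGS01021481, WNGS01164690 and WNGS01165751, kept 70.8%, 69.8% and 68.5%.

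No prefix mean rose by more than 10 percentage points. The 2 prefixes with both KD animals above both controls, named after their values were seen, were unmethylated. WNGS01020235 had 0.763% and 0.550% in the controls and 2.92% and 3.07% in KD, and WNGS01096387 had 7.37% and 5.55% against 7.89% and 8.07%.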

How the data were processed

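WGBS libraries of hemocyte DNA from 2 control and 2 KD animals were analysed. The authors trimmed the reads with Trim Galore, aligned them with Bismark on Bowtie2, removed duplicates and averaged CpG methylation per gene, and they deposited 1 table with an average methylation fraction for each gene and animal. The submitters' processing notes name bedtools 2.24.0. The genome build is not given in the sources used here. Gene models, prefixes, intraclass correlations and differences were computed with python 3.11.15 and pandas 2.3.3. Fractions of all 12978 gene models, and the means of all 8115 prefixes, were tested with limma 3.58.1 (R 4.3.3, trended prior, Benjamini-Hochberg adjustment over the table, models at 0 in all animals left out), and the code was tested on simulated data. Prefix groups were compared by exact permutation over the animals. Prefixes were named by size within each class, by the retained share and by the range of their models, and of these the lowest and highest model. The members and lists were chosen with earlier results of these data known. The alternatives were other levels, sizes, scales, priors and filters, a replicate block and leaving out each animal.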

Additional observations from a re-analysis of the deposited data

How the results depend on the processing

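Of the results under other settings, 147 were labelled unchanged, 60 moved and 1 changed its sign. The unchanged label does not mean that a value stayed close. For differences between the groups it shows no more than a kept sign. The difference in wholly unmethylated prefixes, -0.762 points, kept the label at -0.223 points without control 1. The label also held at -1.77 points with the class set on control 2 and the loss taken from control 1. Results from the controls alone cannot change when a KD animal is left out, and were also labelled unchanged. With prefixes of 5 to 150 models, 623 models fell and 8 rose by more than 10 points, the intraclass correlation was 0.129 for the level, 0.0919 for the loss and 0.0571 for the retained share, the differences within a prefix were 23.6 and 11 points, and 3 prefixes were wholly methylated and 4 wholly unmethylated. For 3 to 9 models the correlations were 0.50, 0.330 and 0.138 with a level difference of 16.8 points, and for 10 to 150 models 0.118, 0.0853 and 0.0147 with differences of 25.8 and 11.8 points and 1 whole prefix of each kind. Models with a single row gave a level correlation of 0.241, leaving out models with identical values gave 0.267 (0.174 for the loss) and leaving out models at 0 in all animals gave 0.263 (0.172). Pairs that were not neighbours differed by 19.1 points. Removing the level from the loss gave 0.0408 and 5.39 points. These splits by size and this removal were added after seeing the data.

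With a methylated level of 5%, 166 prefixes were wholly methylated and 24 wholly unmethylated, and the difference in the latter was 0.157 points. The cause was not tested. With 20% the counts were 66 and 127. A threshold of 5 points gave 53 models that rose, and one of 20 points 539 that fell and 3 that rose. Without a trended prior limma called 248 models lower and 1 higher and 48 prefixes lower. The retained share gave 0.0572 from a control mean of 10% and 0.129 from 30%.

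With the replicate number as a block, the prefix mean differed by -9.34 points, 758 models fell (989 without the block) and 3 rose (15) by more than 10 points in both pairs, limma still called 0, the loss gave 0.123 and 11.2 points and the retained share 0.0175 and 21.9 points. The deviations of animals with the same number correlated by 0.024 over 2 pairs, so the number is not taken as a pairing, although library depth also goes with it.

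Leaving out each animal in turn gave a prefix mean difference of -10.8 to -7.90 points, 866 to 1088 models that fell and 20 to 36 that rose, and 0 limma calls. The rises, 15 with all animals, were 36 without control 1, 35 without KD 1, 31 without KD 2 and 20 without control 2. The level gave 0.225 to 0.234 and 18.0 to 19.1 points, the loss 0.127 to 0.154 and 9.57 to 11 points, and the retained share 0.0265 to 0.0885 and 16.0 to 22.1 points. There were 98 to 114 wholly methylated and 53 to 64 wholly unmethylated prefixes, and the differences were -20.1 to -15.9 points, -0.938 to -0.223 points and, in mixed prefixes, -10.7 to -8.44 points.

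Depth was unknown for each gene model, the 2 animals a group set the smallest permutation p, and the prefixes could not be placed on a genome.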
